A study of Mus musculus with 12 samples.

Results

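The 3 states of methylation on lysine 4 of histone H3 (H3K4me1, H3K4me2 and H3K4me3) were compared with each other in C2C12 myotubes. C2C12 is a mouse line of C3H origin, whose myoblasts divide in serum and fuse into multinucleate, contractile myotubes when serum is withdrawn. The comparison uses the 3 myotube libraries of chromatin immunoprecipitation and sequencing (ChIP-seq) that carry an antibody to an H3K4 methylation state, out of 12 libraries in the series, which hold 6 histone marks in myoblasts and in myotubes. The myotubes were collected after about 5 days without serum and freed of unfused residual cells by light trypsin treatment, while the myoblasts grew in 10% serum, and all cells were at passages 15 to 18. Each mark has 1 library per cell type, so there is no replicate for any value, and chromatin without immunoprecipitation was not analysed here. All intervals are 95% intervals, and no p-value was computed. For read ratios and for folds at single sites they are exact intervals of the read counts. For shares they are exact binomial intervals over promoters, sites or peaks, and for medians they come from ranks over promoters or sites. They treat these units as independent within 1 library.

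Methylation of H3K4 is laid down by the MLL and SETD1 enzymes, which work together with the shared subunits WDR5, RBBP5, ASH2L and DPY30, and is removed by the KDM1 and KDM5 demethylases. H3K4me3 is known for marking the start sites of active genes and CpG-rich promoters, H3K4me1 for marking enhancers and the borders of promoters, and H3K4me2 for lying over both. The nucleosome just before an active transcription start site (TSS) is usually missing or unstable, and there a histone mark has little to be read from.

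The myotube libraries held 6271899 reads for H3K4me1, 4757119 for H3K4me2 and 3298694 for H3K4me3, which gave genome means of 2.45, 1.86 and 1.29 reads per kb. Between 0.746% and 1.15% of the reads were further copies at a position already taken on the same strand. The deposited strand column was read in reverse, because 5′ ends labelled minus preceded those labelled plus at a spacing of 150 bp. In the H3K4me1 and H3K4me2 libraries they did so by little. The values that the reversed reading changed most are given under both readings. All values are folds over the genome mean of the same library, which puts the 3 libraries on a common scale but does not make the efficiency of the antibodies equal. Each of 22342 protein-coding genes has 1 TSS, the one with the most myoblast H3K4me3 reads within 1 kb, so that no myotube library took part in the choice. The 9403 with a deposited myotube H3K27ac peak within 1 kb are called active promoters, since acetylation of H3K27 marks active promoters and enhancers. In the deposited H3K27ac list the H3K27ac library stood at 28.2-fold and the H3K27me3 library at 0.856-fold. In the H3K4me1, H3K4me2 and H3K4me3 lists the H3K27ac library stood at 23.5, 24.2 and 22.7-fold. Each list was called from the library of its own mark, so the 28.2-fold is no independent check of the list. The labelled cell type was checked at 9 myotube markers, and all 9 had an H3K27ac and an H3K4me3 peak, with H3K4me3 between 19.4-fold (Ckm) and 93.9-fold (Chrna1). Of 11 markers of adipocytes, osteoblasts, endothelium, blood, neurons and liver, Pparg and Runx2 had an H3K27ac peak, 4 had an H3K4me3 peak and 3 had no H3K4me3 read. Pax7, a gene of undifferentiated muscle cells, had 1 H3K4me3 read and 24 H3K4me2 reads in 1 kb, and Myf5, another, had 16 and 27. Both had an H3K4me3 peak within 1 kb of the TSS, and Myf5 but not Pax7 had an H3K27ac peak.

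Sequences of the 200 bp before the TSS are shown for 5 promoters, because the dips described below fall in this window, where transcription factors and the basal machinery bind. Acta1 encodes skeletal muscle actin, Des the intermediate filament desmin, Psma1 a proteasome subunit, Myog the muscle regulator myogenin and Ckm muscle creatine kinase. They read 5′ to 3′ along the gene in mm9, at chr8:126418652-126418851 (minus strand), chr1:75356704-75356903 (plus), chr7:121419633-121419832 (minus), chr1:136186381-136186580 (plus) and chr7:19996243-19996442 (plus), and none overlaps an annotated exon. Capitals mark the E-box CAGCTG, which MyoD family factors bind, the E-box CACCTG in either orientation, and TATAAA on the gene's strand.
Acta1: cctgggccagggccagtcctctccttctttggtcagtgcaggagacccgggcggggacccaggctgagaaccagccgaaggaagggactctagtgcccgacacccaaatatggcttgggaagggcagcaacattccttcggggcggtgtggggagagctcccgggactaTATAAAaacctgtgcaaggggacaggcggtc
Des: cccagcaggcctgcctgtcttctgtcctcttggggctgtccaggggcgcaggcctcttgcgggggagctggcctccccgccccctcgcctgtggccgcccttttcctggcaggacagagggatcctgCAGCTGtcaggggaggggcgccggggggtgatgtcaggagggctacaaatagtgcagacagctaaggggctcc
Psma1: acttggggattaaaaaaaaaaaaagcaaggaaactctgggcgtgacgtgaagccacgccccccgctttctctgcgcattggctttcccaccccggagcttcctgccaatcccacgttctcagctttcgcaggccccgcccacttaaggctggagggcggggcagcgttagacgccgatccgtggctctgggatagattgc
Myog: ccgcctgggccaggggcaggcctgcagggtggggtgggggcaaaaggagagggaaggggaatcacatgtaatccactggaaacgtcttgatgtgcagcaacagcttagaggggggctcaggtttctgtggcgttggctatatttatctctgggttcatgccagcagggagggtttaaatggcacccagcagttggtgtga
Ckm: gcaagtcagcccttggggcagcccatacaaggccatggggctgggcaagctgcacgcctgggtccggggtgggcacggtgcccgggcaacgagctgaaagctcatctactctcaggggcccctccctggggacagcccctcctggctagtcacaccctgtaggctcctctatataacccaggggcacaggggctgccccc
TATAAA was found in the Acta1 window and in 6.88% of the windows of all promoters, and CAGCTG in the Des window and in 9.66% of all. No window of the 5 held CACCTG, which 13.5% of all windows hold. GC content was 62% for Acta1, 68.5% for Des, 58.5% for Psma1, 57% for Myog and 67% for Ckm.

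At active promoters the 3 states formed an ordered set of widths around the TSS. H3K4me3 was highest and narrowest, with a maximum of 50.5-fold in the 100 bp bin centred 150 bp after the TSS and a width of 1600 bp at 50% of the height above the level beyond 4 kb. The bin at 350 bp was nearly as high (50.4-fold), and the maximum lay there with the strand column as deposited and in plus-strand genes, and at 450 bp from the most 5′ TSS of each gene or at promoters with no other TSS within 10 kb. H3K4me2 reached 29.3-fold at 550 bp and was 2000 bp wide. H3K4me1 reached only 5.02-fold, at 1050 bp, and was 3500 bp wide, from 1100 bp before the TSS to 2400 bp after it. The distance from the TSS that held 50% of the signal above the far level followed the same order, 600, 800 and 1400 bp. In the last bin of the window, 4950 bp after the TSS, H3K4me3 stood at 3.87% of its maximum, H3K4me2 at 10.0% and H3K4me1 at 59.2%.

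**Figure D1:**
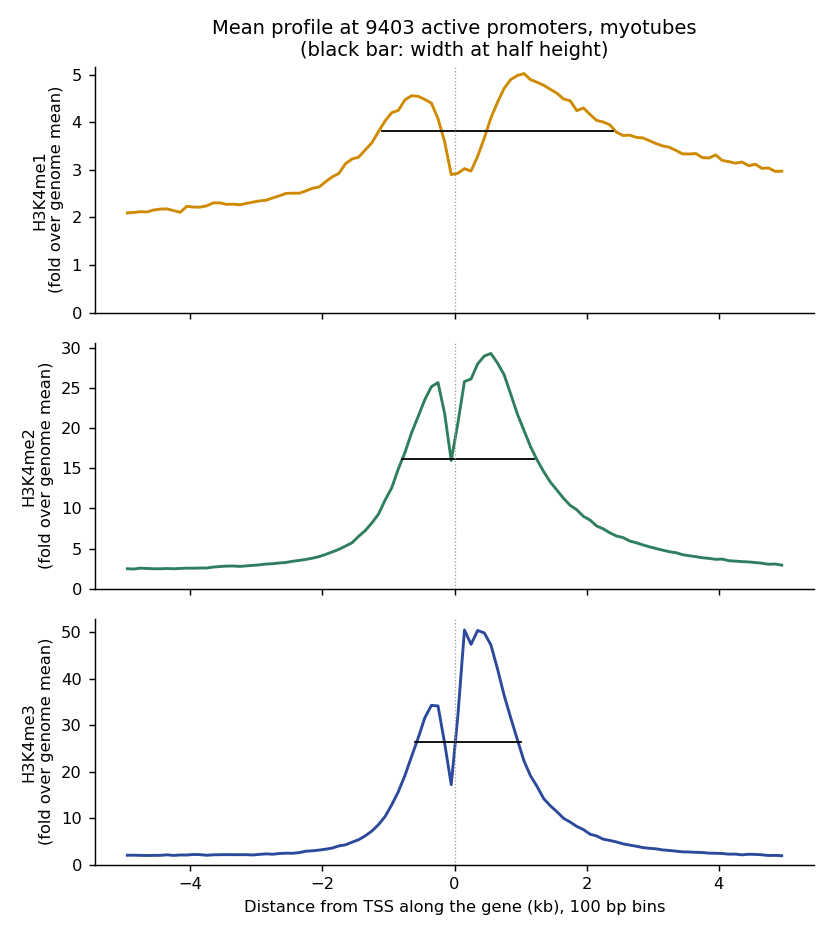
Mean profile of H3K4me1, H3K4me2 and H3K4me3 at the 9403 active promoters, as fold over the genome mean (y axis, its own range in each panel, from 0) in 100 bp bins along the gene (x axis, kb from the TSS); black bars span the width at 50% of the height. The bars lengthen from H3K4me3 (1600 bp) to H3K4me2 (2000 bp) and H3K4me1 (3500 bp), and each profile is lowest near its centre in the bin just before the TSS.

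Every state had its higher maximum after the TSS, but close to the TSS H3K4me1 was lower after it than before it, with 2.98-fold at 250 bp downstream and 4.08-fold at 250 bp upstream. Upstream maxima were 34.2-fold for H3K4me3 at 350 bp, 25.7-fold for H3K4me2 at 250 bp and 4.56-fold for H3K4me1 at 650 bp before the TSS. Between 1 and 2 kb from the TSS the downstream side held 2.27 times the reads of the upstream side for H3K4me3 (2.25 to 2.29), 2.00 times for H3K4me2 (1.98 to 2.01) and 1.41 times for H3K4me1 (1.39 to 1.42). These intervals do not overlap. Among the 4333 active promoters with no TSS of another gene within 10 kb the ratios were 4.60, 3.28 and 1.64, in the same order. In the group of 4 with the least H3K27ac the ratio was larger for H3K4me2 (1.84, 1.81 to 1.88) than for H3K4me3 (1.70, 1.66 to 1.74), so the order of these states in asymmetry was not the same in every group of promoters. By the strand of the gene, the 4721 plus-strand and 4682 minus-strand genes gave near mirror images. Their widths were 1500 and 1600 bp for H3K4me3, 2000 bp in both for H3K4me2, and 3600 and 3500 bp for H3K4me1, and their downstream maxima were 51.0-fold and 50.7-fold for H3K4me3.

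On the scale of genome means the levels of the 3 states crossed at the distances given here, which depend on that scale. Outside peaks the H3K4me1, H3K4me2 and H3K4me3 libraries held 1.25, 0.772 and 0.689 reads per kb, beside genome means of 2.45, 1.86 and 1.29. Crossings on the scale of those levels were not computed. Within about 1 kb H3K4me3 had the highest fold, H3K4me2 passed it at 1050 bp before and 1350 bp after the TSS, and H3K4me1 passed H3K4me3 at 2450 bp before and 2950 bp after it. H3K4me1 exceeded H3K4me2 in 1 of the 100 bins, at 4950 bp. At 1950 bp downstream the folds were 4.30 for H3K4me1, 9.01 for H3K4me2 and 7.57 for H3K4me3. On the scale of genome means H3K4me3 therefore led at the start site and H3K4me2 over the flanks. Farther out H3K4me1 led over H3K4me3 but not over H3K4me2.

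The same order was seen at single promoters. For each active promoter with at least 20 reads of every state within 5 kb (9070 of 9403), the median distance of the reads from the TSS was taken as the reach of the state. Reads spread evenly over the window would give 2500 bp, so a weakly enriched state has a long reach by this measure. The median reach was 624 bp for H3K4me3 (616 to 633), 832 bp for H3K4me2 (821 to 842) and 1923 bp for H3K4me1 (1906 to 1942). At 7758 promoters, 85.5% (84.8 to 86.3), H3K4me3 lay nearest to the TSS, H3K4me2 next and H3K4me1 farthest. The most frequent other order put H3K4me2 before H3K4me3, at 944 promoters or 10.4%. H3K4me1 lay farther than H3K4me2 at 97.1% of the promoters, and H3K4me3 lay nearer than H3K4me2 at 87.0%.

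**Figure D2:**
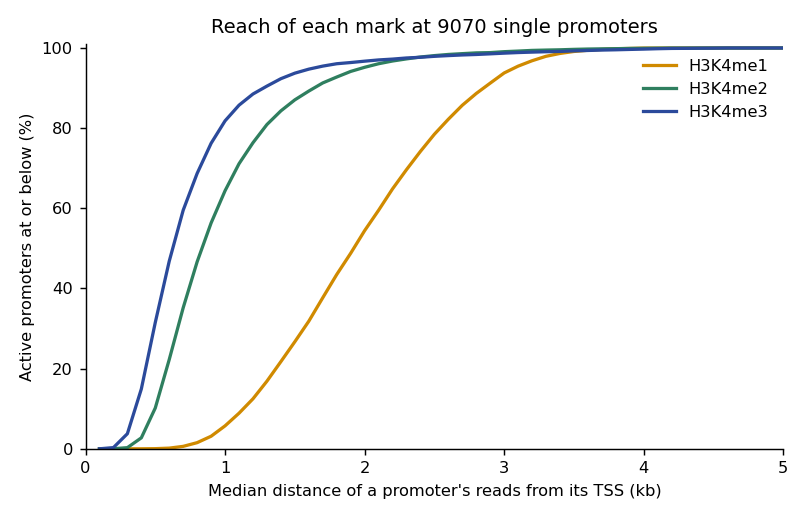
Percent of 9070 active promoters (y axis) whose reads of a state lie at or below a given median distance from the TSS (x axis, kb), with one line for each state. The line of H3K4me3 rises at the shortest distances, that of H3K4me2 follows (medians 624 and 832 bp), and that of H3K4me1 lies well to the right (1923 bp).

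The muscle genes had the order with a longer reach than all active promoters. All 9 muscle regulators, 12 of 13 contractile and structural genes and all 5 genes of metabolism, calcium handling and fusion were active promoters, and 24 of these 26 (92.3%) had the order that 85.5% of active promoters had. Their median reach was 1318 bp for H3K4me3, 1943 bp for H3K4me2 and 2451 bp for H3K4me1. Over all active promoters it was 624, 832 and 1923 bp, and over the 10 widely expressed genes below 896, 1352 and 2087 bp. Promoters of like H3K27ac level were not compared. At Acta1 the reach was 1126, 1717 and 2314 bp for H3K4me3, H3K4me2 and H3K4me1, and the folds in 1 kb were 69.8, 39.3 and 6.12. At Ttn, which encodes the giant sarcomere protein titin, H3K4me3 stood at 89.2-fold with a reach of 1298 bp. At Myog the reach was 1259, 1808 and 2944 bp, and H3K4me2 (31.7-fold, 59 reads) was higher than H3K4me3 (20.9-fold, 27 reads) in the central 1 kb. Ckm had a short reach, 608, 838 and 1285 bp. The exceptions were Actc1, cardiac actin, where H3K4me1 (2240 bp) came before H3K4me2 (2284 bp), and Myf6, where the 3 values lay between 2838 and 2912 bp and H3K4me3 was 1.55-fold. Neb, the gene of nebulin, was not an active promoter at the TSS used here, and had no H3K4me3 read in 1 kb.

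Widely expressed genes and the genes of the H3K4 methylation machinery had the order at 9 of 10 and 13 of 14 promoters, shares near the 85.5% of all active promoters. Dpy30 and Rbbp5, subunits of the methyltransferase complexes, had an H3K4me3 reach of 380 and 461 bp at 54.3-fold and 66.7-fold. Kdm5a, an H3K4me3 demethylase, had 95.4-fold H3K4me3 with a reach of 530 bp, beside 772 bp for H3K4me2 and 1739 bp for H3K4me1. At Kdm5b, a related demethylase, H3K4me3 had the longest reach (2761 bp), beyond H3K4me1 (2704 bp). Tbp, the TATA-binding protein, was the exception among the widely expressed genes, with H3K4me2 (1301 bp) before H3K4me3 (1394 bp). The 14 matched methylation genes had a median H3K4me3 reach of 668 bp, and the 10 widely expressed genes 896 bp. Mll4 was not matched to the annotation.

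**Figure D3:**
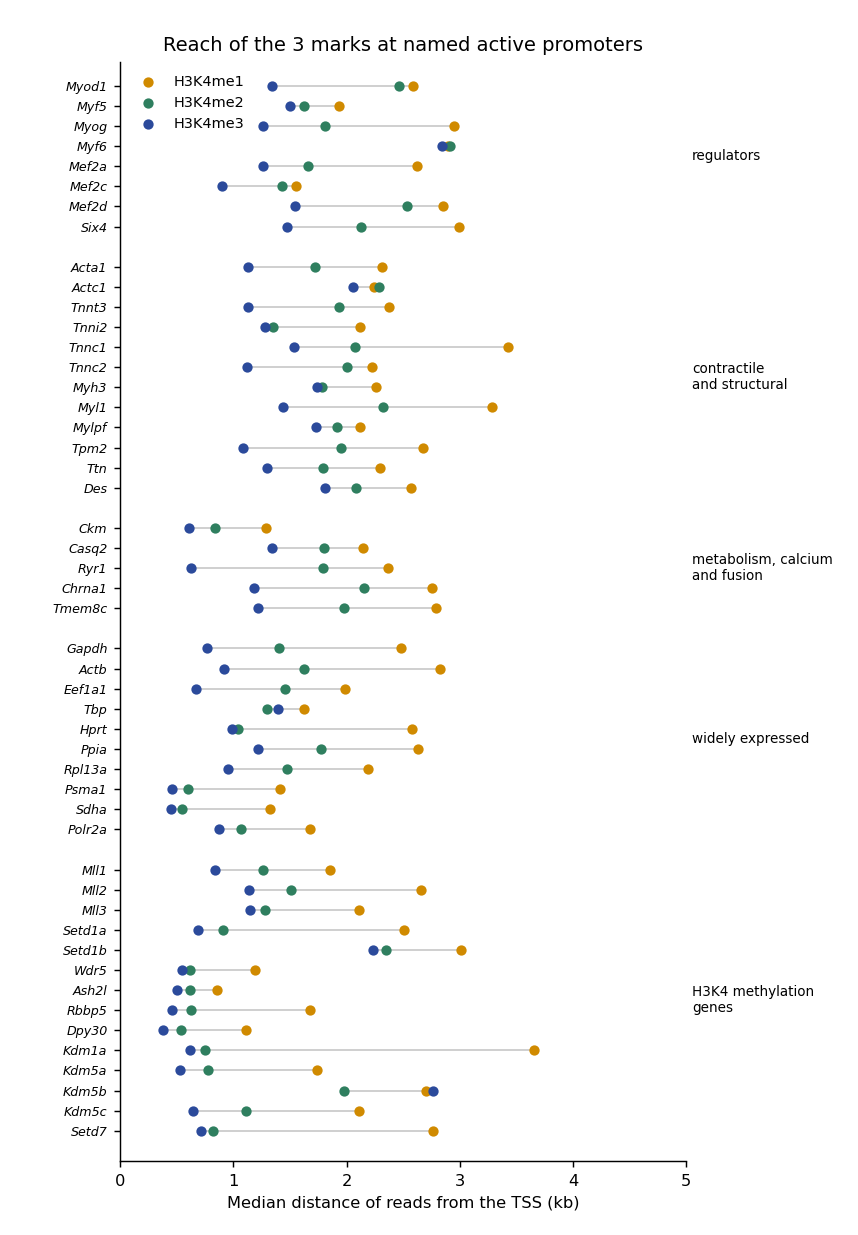
Median distance of the reads of each state from the TSS (x axis, kb) at 49 of the 50 named active promoters (y axis, grouped by list), with H3K4me1, H3K4me2 and H3K4me3 as coloured points. The H3K4me3 point lies leftmost and the H3K4me1 point rightmost at 45 of the 49 promoters, with Actc1, Myf6, Tbp and Kdm5b as exceptions.

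All 3 mean profiles were low just before the TSS, but the shapes differed. Between the highest bins on either side within 1 kb, the lowest bin was the one just before the TSS in each case. It stood at 17.2-fold for H3K4me3, 16.0-fold for H3K4me2 and 2.90-fold for H3K4me1. Per base, the reads in the 200 bp before the TSS were 0.634 of the lower of the flanking maxima for H3K4me3 (0.625 to 0.642), 0.736 for H3K4me2 (0.728 to 0.745) and 0.713 for H3K4me1 (0.695 to 0.731). Against the lower of the fixed 400 bp flanks, a measure chosen after seeing the data, the ratios were 0.682 for H3K4me3 (0.676 to 0.689), 0.789 for H3K4me2 (0.782 to 0.796) and 1.06 for H3K4me1 (1.043 to 1.085). H3K4me3 and H3K4me2 thus had a narrow dip, 100 and 200 bp wide. H3K4me1 had none of that kind but a trough of 700 bp, in which its level stayed between 2.90-fold and 3.03-fold from 50 bp before to 250 bp after the TSS. At 150 bp after the TSS, where H3K4me3 was at its maximum and H3K4me2 at 88.1% of its own, H3K4me1 stood at 60.2%. The depth depended on how reads were placed. With the middle of each read in place of the fragment midpoint, the ratio to the lower flanking maximum was 0.775 for H3K4me3 and 0.723 for H3K4me2, so these data give no order of depth between the states. With the strand column as deposited it was 1.04 for H3K4me3, whose dip was lost, and 0.808 for H3K4me2 and 0.732 for H3K4me1.

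By the fixed 400 bp flanks, the narrow dip was seen at GC-rich windows. Active promoters were put in 4 groups by the GC content of the 200 bp before the TSS, and the ratio to the lower 400 bp flank was taken in each. In the 2351 promoters with the least GC (median 51.5%) no H3K4 state was lower in the window than in both flanks, with ratios of 1.08 for H3K4me3, 1.08 for H3K4me2 and 1.11 for H3K4me1. In the 2351 with the most GC (median 75%) the ratios were 0.393 (0.383 to 0.403), 0.634 (0.622 to 0.647) and 0.843 (0.800 to 0.887). With the strand column read in reverse H3K4me3 thus had the lowest ratio of the 3 states at high GC, but as deposited H3K4me2 had it. The marks that are not H3K4 methylation had lower ratios at high GC too. H3K27ac went from 1.23 to 0.794 between these groups, H3K27me3, a mark of silent genes with 160 reads in the window of the last group, from 1.47 to 0.629 and H3K36me3 from 1.21 to 0.834. With the strand column as deposited the H3K4me3 ratios were 1.41 and 0.792 and those of H3K4me2 1.115 and 0.743. Against the lower flanking maximum, read in reverse, every H3K4 state was lower in the window at the least GC too. The ratios there were 0.897 for H3K4me3 (0.875 to 0.919), 0.915 for H3K4me2 (0.893 to 0.937) and 0.889 for H3K4me1 (0.848 to 0.932). In the group with the most GC they were 0.363, 0.562 and 0.388. The part that GC content or unique alignment had in the dips was not tested.

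**Figure D4:**
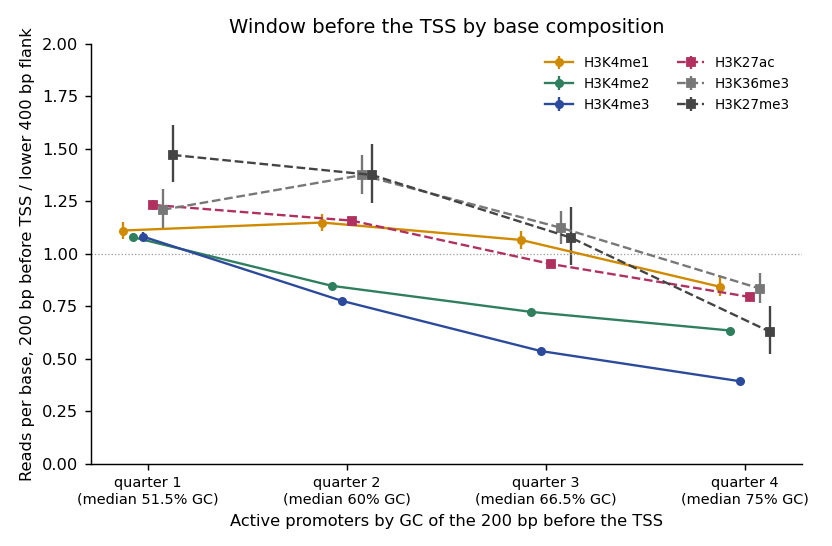
Reads per base in the 200 bp before the TSS over the lower of the 400 bp flanks (y axis, with exact 95% counting intervals as bars) for 6 marks in 4 groups of active promoters ordered by GC content of that window (x axis). With the strand column read in reverse, the 6 ratios lie above 1 in the group with the least GC. They lie below 1 in that with the most, where H3K4me3 is lowest at 0.393.

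A single promoter was called dipped when the 200 bp before the TSS held under 50% of the reads per base of both flanking 400 bp. This held at 2707 of 7722 promoters with at least 20 H3K4me3 reads there (35.1%), at 20.8% of 8541 for H3K4me2 and at 15.1% of only 589 for H3K4me1. With the strand column as deposited these shares were 8.65%, 13.4% and 8.88%, and from the middle of each read 20.7%, 21.7% and 12.2%, so the H3K4me3 share and its lead over H3K4me2 rest on the reversed reading. Of the 43 named promoters with enough H3K4me3 reads 15 were called (34.9%), a share near the 35.1% of all promoters. At Acta1, whose window is printed above, H3K4me3 had 32 reads in the 400 bp upstream, 1 in the window and 40 in the 400 bp downstream, and H3K4me2 had 36, 6 and 30. Psma1 had 11, 0 and 33 H3K4me3 reads, and Des 12, 1 and 24. At Myog the H3K4me3 counts were 4, 1 and 15 and at Ckm 5, 3 and 20, and neither was called. Most promoters had too few H3K4me1 reads in this 1 kb for a dip to be read at this depth. Over a wider scale, H3K4me1 was lower in the central 1 kb than in both shoulders, 500 to 2000 bp away, at 3132 of 8062 promoters (38.9%), but H3K4me2 at 6.04% and H3K4me3 at 3.37%.

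The balance of the states differed with the class of promoter. A CpG-rich promoter lies in a stretch dense in CpG, as those of most widely expressed genes do. In 1 kb around the TSS, CpG-rich active promoters (8392) had median folds of 34.1 for H3K4me3, 23.7 for H3K4me2 and 2.86 for H3K4me1. CpG-poor active promoters (285) had 6.98 (5.43 to 10.1), 14.5 (11.8 to 15.6) and 7.34 (6.93 to 8.16). H3K4me1 thus had the higher median at CpG-poor and the lower at CpG-rich promoters. H3K4me1 exceeded H3K4me3 at 3.96% of all active promoters (372 of 9403), at 0.798% of the CpG-rich ones and at 54.0% (48.1 to 59.9) of the CpG-poor ones. The central depression of H3K4me1 also went with CpG content, with a ratio to the lower flanking maximum of 0.671 at CpG-rich and 0.927 at CpG-poor promoters. Muscle genes with CpG-poor promoters included Tnnt3 (troponin T, 6.93-fold H3K4me1), Chrna1 (acetylcholine receptor, 8.97-fold) and Tmem8c (the fusion protein myomaker, 15.5-fold), and at all 3 H3K4me3 was higher still, 56.6, 93.9 and 65.9-fold. Among the 26 muscle promoters H3K4me1 exceeded H3K4me3 at 2, Myf6 and Actc1.

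Promoters without an H3K27ac peak were low in all 3 states by the median. Their median folds over 12939 genes were 0.816, 0.538 and 0.776 for H3K4me1, H3K4me2 and H3K4me3. The mean folds in 1 kb were higher, 1.40, 4.31 and 3.77. In the 4306 that were CpG-rich and had no H3K27me3 peak either, the means were 2.17, 10.4 and 8.89. The CpG-rich promoters with an H3K27me3 peak and no H3K27ac peak (132) had a median H3K4me2 of 2.69-fold (2.15 to 3.77). This was more than H3K4me1, 1.63-fold (1.22 to 2.04), or H3K4me3, 0.776-fold (0.776 to 1.55). By the mean H3K4me2 also led, at 4.75-fold, but H3K4me3 (2.32-fold) was not below H3K4me1 (2.12-fold). In embryonic stem cells promoters with H3K27me3 are known to carry H3K4me3 as well.

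Among active promoters the widths moved with acetylation and with H3K4me3 peak length. From the group of 4 with the fewest H3K27ac reads (median 17 in 1 kb) to the group with the most (median 105), the width at 50% of the height went from 1200 to 1800 bp for H3K4me3, from 1600 to 2600 bp for H3K4me2 and from 2700 to 5400 bp for H3K4me1, and the order of the states held in each group. The upstream maximum of H3K4me1 lay 350 bp before the TSS in the first of these groups and 950 bp in the last. Across 4 groups by H3K36me3 over the gene body, a mark of transcribed genes, the H3K4me1 maximum went from 3.43-fold to 6.88-fold and that of H3K4me3 from 38.0-fold to 63.0-fold. By the length of the first exon, the H3K4me3 width was 1300, 1400 and 1800 bp in genes with median first exons of 90, 190 and 386 bp. Across 5 groups by the length of the deposited H3K4me3 peak over the TSS (8563 promoters), the H3K4me1 maximum lay at 750 bp in the group with the shortest peaks (median 1472 bp) and at 2350 bp in that with the longest (median 3989 bp). Since H3K4me3 reads set those peaks, the H3K4me3 widths of these groups are no result.

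The longest H3K4me3 peaks over a TSS belonged to 1110002E22Rik (13478 bp, chromosome 3), Tnrc18 (12004 bp, chromosome 5), Eno3 (11646 bp, chromosome 11), 2900073G15Rik (11316 bp, chromosome 17) and Setd1b (9982 bp, chromosome 5), against a median of 2354 bp over 8563 active promoters. Eno3 encodes muscle enolase, and its reach was 1821 bp for H3K4me3, 1864 bp for H3K4me2 and 2118 bp for H3K4me1. At Tnrc18 and 2900073G15Rik H3K4me1 had 2 reads in the central 1 kb, beside 56 and 90 H3K4me3 reads. Tnnc1, cardiac and slow muscle troponin C, had a peak of 9817 bp and Acta1 one of 8757 bp.

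At sites far from start sites the order of the levels of H3K4me1 and H3K4me3 was turned around. The 27373 distal sites are the midpoints of the H3K27ac peaks over 5 kb from any annotated TSS, of 47019 H3K27ac peaks, and they lay at a median of 21365 bp from a TSS. Of these, 15107 lay in genes and 804 in exons, and 19860 had another H3K27ac peak within 5 kb. Median folds in 1 kb were 8.56 for H3K4me1 (8.16 to 8.56), 6.99 for H3K4me2 and 3.10 for H3K4me3. H3K4me1 exceeded H3K4me3 at 88.0% of the distal sites (87.6 to 88.4), against 3.96% of active promoters, and exceeded H3K4me2 at 60.9%. H3K4me2 was thus close to H3K4me1 at distal sites and close to H3K4me3 at promoters.

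In the distal profiles H3K4me1 was the widest state. Widths at 50% of the height were 1600 bp for H3K4me1, 1200 bp for H3K4me2 and 1100 bp for H3K4me3, with maxima of 10.4, 10.4 and 5.46-fold at the centre. H3K4me2 and H3K4me3 differed by 1 bin, were equal at sites over 10 kb from a TSS (1200 bp each) and at sites without a neighbouring peak (1000 bp each), and stood in the other order around H3K4me2 peaks (400 and 800 bp), so no order between these states was found. None of the mean profiles dipped at the midpoint: the central 200 bp held 1.09, 1.08 and 1.102 times the reads per base of the lower neighbouring maximum. Against the reads per base 200 to 400 bp away the ratios were 1.19, 1.23 and 1.23. By that measure H3K36me3 (1.29) and H3K27me3 (1.14) rose at the midpoint as well. Whether a rise common to these libraries hides a dip was not tested. Of 7513 distal sites with no other H3K27ac peak within 5 kb, 2985 had at least 20 reads of each state. The reads of the states compared thus chose these sites, and the others could not be read. At the 2985 single sites no order prevailed. H3K4me2 lay nearest, followed by H3K4me3 and H3K4me1, at 31.6% (29.96 to 33.3), and the order seen at promoters was found at 24.6% (23.1 to 26.2). The median reach was 1499, 927 and 1230 bp for H3K4me1, H3K4me2 and H3K4me3.

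**Figure D5:**
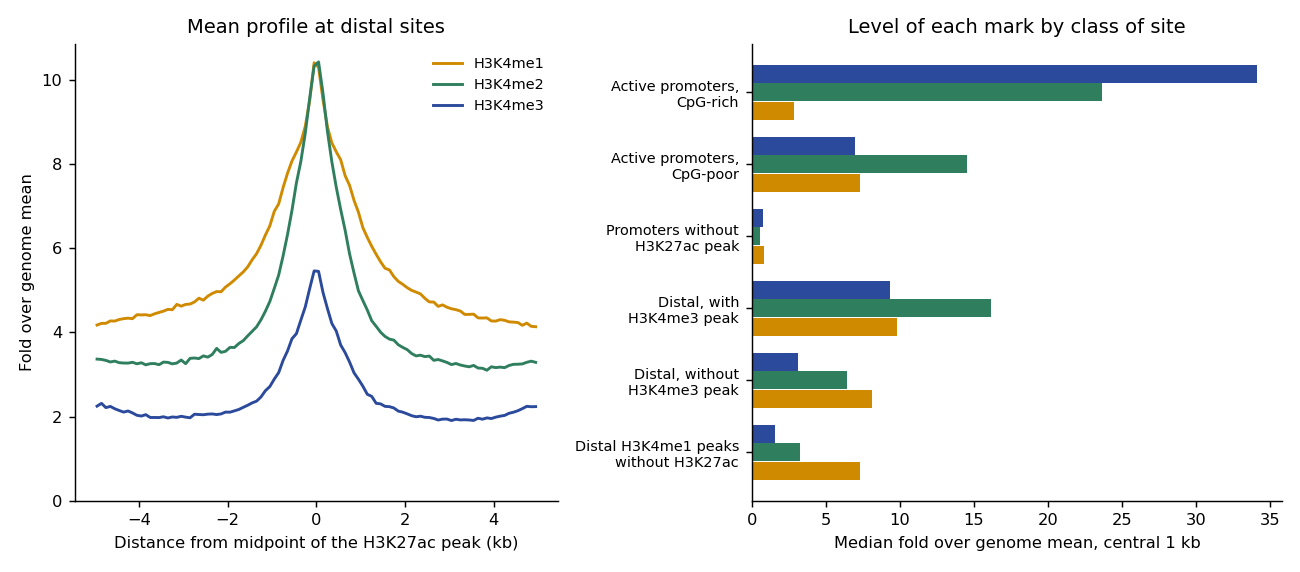
Left, mean fold over the genome mean (y axis) of the 3 states in 100 bp bins around the midpoints of 27373 distal H3K27ac peaks (x axis, kb). Right, median fold in the central 1 kb (x axis, bars from 0, same colours) for 6 classes of site. H3K4me1 and H3K4me2 peak at 10.4-fold and H3K4me3 at 5.46-fold, and the leading state changes from H3K4me3 at CpG-rich promoters (34.1-fold) to H3K4me1 at distal sites without an H3K4me3 peak (8.16-fold).

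Distal sites differed among themselves as promoters did. The 4371 with an H3K4me3 peak had medians of 9.79, 16.1 and 9.31-fold for H3K4me1, H3K4me2 and H3K4me3, a balance near that of CpG-poor promoters, and the H3K4me3 values were used in choosing them. The 23002 without one had 8.16, 6.45 and 3.10-fold. From the group of 3 with the lowest to that with the highest H3K27ac peak score, median H3K4me2 went from 4.84 to 11.3-fold, H3K4me3 from 2.33 to 5.43-fold and H3K4me1 from 6.93 to 11.0-fold, and H3K4me1 exceeded H3K4me2 at 70.3% and 47.7% of sites. At 11623 H3K4me1 peaks over 5 kb from a TSS with no H3K27ac peak within 5 kb, medians were 7.34-fold for H3K4me1, which chose them, 3.23-fold for H3K4me2 and 1.55-fold for H3K4me3. Sites in genes and between genes had similar medians, 9.38 and 7.75-fold for H3K4me1, 7.53 and 6.99-fold for H3K4me2 and 3.10-fold in both for H3K4me3.

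Because the midpoint of a long acetylated peak need not be the bound element, the states were also centred on short motifs within the distal sites, a choice made after the midpoint profiles were seen. CAGCTG occurs in 46.8% of the 27373 sites (22754 times), CACCTG or its reverse complement CAGGTG in 45.0%, TGANTCA, the letters that AP-1 binds, in 26.7%, and CTATTTATA or its reverse complement TATAAATAG, a form of the element of MEF2 factors, in 1.68%. At TGANTCA all 3 states were lower at the centre: the central 200 bp held 0.956 (0.945 to 0.966) of the reads per base found 200 to 400 bp away for H3K4me1, 0.961 (0.949 to 0.972) for H3K4me2 and 0.837 (0.820 to 0.855) for H3K4me3. H3K27ac was at 0.839 there, and H3K36me3 at 1.04. At CAGCTG H3K4me3 was lower, 0.891 (0.879 to 0.903), beside 1.04 for H3K4me1, 1.02 for H3K4me2 and 1.16 for H3K36me3. Against the lower neighbouring maximum, the measure used at midpoints, H3K4me2 was lower there as well, at 0.945. By that measure H3K36me3 was also low, at 0.873 there and 0.754 at TGANTCA. Its maxima around CAGCTG lay far off, at 4550 bp on one side and 4950 bp on the other. At CACCTG no state was lower (1.14, 1.08 and 1.09), and H3K36me3 was 1.26. At the 465 occurrences of CTATTTATA the values were 0.762, 0.929 and 0.795, but H3K36me3, no mark of enhancers, was also low, at 0.689. CAGCTG occurred 22754 times in 12803 sites, and each occurrence of a motif was counted. Reads near several occurrences thus entered more than once, which makes the intervals at motifs too narrow. What part sequence composition has in these ratios was not tested.

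The distal site nearest to Myod1, the gene of the muscle determination factor MyoD, lay 5231 bp before its TSS (chr7:53626047-53627178). It had 4.49-fold H3K4me1 (11 reads, 2.24 to 8.03), 10.2-fold H3K4me2 (19 reads, 6.15 to 16.0) and 4.66-fold H3K4me3 (6 reads, 1.71 to 10.1), and the intervals of these states overlap. The site nearest to Myog lay 13043 bp after its TSS, within an annotated gene (chr1:136198800-136200447), with 13.1-fold H3K4me1 (32 reads), 12.4-fold H3K4me2 (23 reads) and 1.55-fold H3K4me3 (2 reads, 0.188 to 5.61). The site nearest to Des lay 5045 bp before its TSS (chr1:75351698-75352019), with 17.9-fold H3K4me1 (44 reads, 13.0 to 24.1), 10.2-fold H3K4me2 (19 reads) and 5.43-fold H3K4me3 (7 reads). At the sites near Myog and Des H3K4me1 was above H3K4me3 beyond the counting error. The search found no distal site within 50 kb of Ckm. The central 200 bp of the sites near Myod1 (chr7:53626513-53626712) and Myog (chr1:136199524-136199723) are shown on the plus strand, with CACCTG or CAGGTG and TATAAATAG in capitals, since they hold the motifs used for centring.
Site near Myod1: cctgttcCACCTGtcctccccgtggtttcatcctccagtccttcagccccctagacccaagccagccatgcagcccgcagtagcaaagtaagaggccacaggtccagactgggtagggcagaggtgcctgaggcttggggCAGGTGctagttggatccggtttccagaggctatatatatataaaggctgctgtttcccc
Site near Myog: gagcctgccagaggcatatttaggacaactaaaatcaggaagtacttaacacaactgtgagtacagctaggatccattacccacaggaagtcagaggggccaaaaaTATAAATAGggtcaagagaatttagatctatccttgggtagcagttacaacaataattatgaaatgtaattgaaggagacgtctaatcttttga

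The extremes of the distal sites differed in their balance. The 5 sites with the most H3K4me1 had between 86 and 92 reads in 1 kb, and 3 of them lay on chromosome 18 in a row of acetylated peaks. The first of these had 37.5-fold H3K4me1 but more H3K4me2, 50.02-fold, and 22.5-fold H3K4me3, and it overlapped an H3K4me3 peak. The one nearest to Tspo (chr15:83403422-83406541) had 35.1-fold H3K4me1, 19.4-fold H3K4me2 and 7.76-fold H3K4me3, and the one nearest to Sorcs2, within a gene, (chr5:36719295-36723810) 35.9, 12.4 and 6.98-fold. The 5 sites with the most H3K4me3 had between 121 and 233 reads, and each overlapped an H3K4me3 peak. That nearest to Bves (chr10:45033136-45037842) had 181-fold H3K4me3 and 40.9-fold H3K4me2 but 2.86-fold H3K4me1 (7 reads), and that nearest to Rbfox2 (chr15:76991287-76994196) had 178, 45.7 and 4.49-fold. The one on chromosome 6 (chr6:47600837-47601587) had 122-fold H3K4me3, 90.9-fold H3K4me2 and also 12.2-fold H3K4me1. H3K4me3 at the sites near Bves and Rbfox2 was above the CpG-rich promoter median of 34.1-fold, and the nearest annotated TSS lay 20079 and 8500 bp away. Whether they hold start sites that the annotation lacks was not tested.

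The deposited peaks of the 3 states were nested to unequal degrees. Of 17912 H3K4me3 peaks 95.7% (95.4 to 96.0) overlapped an H3K4me2 peak and 41.8% an H3K4me1 peak. The H3K4me1 share was 11.8% where the peaks of both lists had to score at least 100. It was 5.13% where at least 50% of the H3K4me3 peak had to be covered. H3K4me2 peaks covered 77.96% of the bases in H3K4me3 peaks and H3K4me1 peaks 7.37%. Of the 7542 H3K4me3 peaks over the TSS of an active promoter, 99.6% overlapped an H3K4me2 peak, 32.5% an H3K4me1 peak, and 5.62% had an H3K4me1 peak within 2 kb beyond both edges. Only 61 active promoters (0.649%) had an H3K4me1 peak over the TSS itself. Peaks within 5 kb of a TSS made up 73.8% of the H3K4me3, 56.8% of the H3K4me2 and 30.6% of the H3K4me1 peaks. The median peak was 1594 bp long for H3K4me3, 466 bp for H3K4me2 and 117 bp for H3K4me1, so the lists do not measure width in the way the read profiles do.

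The myoblast libraries gave the same order of widths at these promoters, whose TSSs were chosen with the myoblast H3K4me3 reads. H3K4me3, H3K4me2 and H3K4me1 were 1200, 1500 and 3600 bp wide in myoblasts, beside 1600, 2000 and 3500 bp in myotubes, with maxima of 67.2, 55.8 and 5.49-fold. With 1 library of each, the difference in width between cell types cannot be told apart from a difference between libraries.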

How the data were processed

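Per the labels, C2C12 chromatin was sonicated, libraries were amplified by 15 PCR cycles and fragments of about 250 bp, adaptors included, were selected. The authors deposited 1 line per aligned read on mm9, used here as counts of 1, and peaks whose score was given by the authors' caller within each list. The study's methods name Mosaik and MACS for its myoblast libraries, and the settings for the myotubes are not given in the sources used here. The members, gene lists and motifs were chosen with earlier results of these data known.

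Reads on chromosomes 1 to 19 and X were moved to the midpoint of a 150 bp fragment and counted in 100 bp bins. In the deposited strand column the 5′ ends labelled minus lay before those labelled plus, in 9 of 9 libraries at a spacing of 150 bp though by little in myotube H3K4me1 and H3K4me2, so strand was read in reverse. Genes come from GENCODE M1, and its genome sequence is of the files' build. CpG-rich promoters hold a 500 bp window, between 500 bp before and 2000 bp after the TSS, with at least 55% GC and a CpG ratio of at least 0.6, and CpG-poor ones none of at least 0.4. Named genes are the muscle, widely expressed and H3K4 methylation lists, the 5 longest H3K4me3 peaks and H3K4me1 gaps, the 5 distal sites highest in H3K4me1 and in H3K4me3, and distal sites near Myod1, Myog, Ckm and Des. Steps were tested on simulated reads. PCR reads are not independent molecules, and the intervals cover no difference between libraries. Python 3.11.15, numpy, pandas and scipy were used. Single values of some named genes are not reported here.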

Additional observations from a re-analysis of the deposited data

How the results depend on the processing

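No paired analysis was possible because each mark has 1 library per cell type. Of 266 alternative values, 168 stayed within the counting interval or 1 bin of the reported one, 88 moved and 10 changed side, and for those that moved the cause was not tested unless the setting itself names it. At active promoters the share with H3K4me3 nearest and H3K4me1 farthest was 84.4% with unextended reads, 86.4% with 250 bp fragments, 84.8% with libraries thinned to the smallest, 83.9% with the strand column as deposited, 84.4% from the middle of each read, 83.9% at the most 5′ TSS, 87.8% with at least 40 reads and 82.5% within 3 kb. The H3K4me3 dip ratio was 0.836 unextended, 0.775 from the middle of each read, 0.620 with a fragment length per library, 0.603 at the most 5′ TSS, 0.651 over all TSSs and, with its side changed, 1.04 with the strand as deposited. Against the fixed 400 bp flanks the ratios were 0.682, 0.789 and, with its side changed, 1.06 for H3K4me1. Single promoters with a dip were 8.65% (H3K4me3), 13.4% (H3K4me2) and 8.88% (H3K4me1) as deposited, and 20.7%, 21.7% and 12.2% from the middle of reads. The H3K4me3 maximum moved from 150 to 350 bp as deposited and to 450 bp at the most 5′ and at isolated TSSs. The H3K4me2 ratio was 0.817 at 250 bp, 0.808 as deposited, 0.723 from the middle of reads, 0.713 per library, 0.723 at isolated TSSs, 0.747 at TSSs near an H3K4me3 peak and 0.771 over all TSSs. The H3K4me1 ratio was 0.732 as deposited, 0.753 at the most 5′ TSS and 0.799 over all TSSs. H3K4me1 was 3800 bp wide at the most 5′ TSS and 4200 bp at isolated TSSs, and H3K4me3 1400 bp at TSSs near an H3K4me3 peak and over all TSSs.

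Distal widths of H3K4me1, H3K4me2 and H3K4me3 were 1300, 900 and 400 bp around the bin with the most H3K27ac, 2100, 1400 and 1600 bp around CAGCTG, 2000, 2000 and 1900 bp around CACCTG, and 2000, 1000 and 1400 bp around CTATTTATA. Around TGANTCA H3K4me1 was 2000 and H3K4me3 1400 bp wide, at uncrowded sites H3K4me1 was 1400 and H3K4me2 1000 bp wide, and at H3K4me2 peaks H3K4me2 was 400 and H3K4me3 800 bp wide. The distal ratio of the centre to the lower neighbouring maximum changed side around CAGCTG for H3K4me2 (0.945) and H3K4me3 (0.872), around TGANTCA (0.933, 0.851 and 0.808) and around CTATTTATA (0.743, 0.786 and 0.724). H3K4me1 exceeded H3K4me3 at 84.3% of distal sites with thinned libraries, 89% against the level outside peaks and 92.5% in 3 kb. With every list cut at scores of at least 100, 96.5% of H3K4me3 peaks overlapped an H3K4me2 and 11.8% an H3K4me1 peak. By at least 50% the shares were 85.9% and 5.13%. Motif centring, the fixed flanks and the readings of strand, read middle and library fragment length were chosen after seeing the data. At this depth dips of H3K4me1 cannot be read at most single promoters.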

Other observations

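The X chromosome held few deposited H3K4me1 peaks, 233 or 1.44 per Mb, against 38.6 per Mb on the autosomes. H3K4me1 reads were 0.692 per kb on X and 2.57 on the autosomes, H3K4me2 reads 0.639 and 1.94, H3K4me3 reads 0.683 and 1.33, and H3K27ac reads 0.509 and 1.94, while H3K27me3 reads were 1.99 and 1.96. The number of X chromosomes in these cells was not tested. Active promoters on X with long gaps between the H3K4me1 peaks on their sides included Apool, Chm, Diap2 and Fmr1, with gaps of 13572773 to 20767676 bp against a median of 56515 bp over 9299 active promoters. Fmr1, the gene of the RNA-binding protein FMRP, had 1.22-fold H3K4me1 (3 reads), 10.2-fold H3K4me2 (19 reads) and 6.98-fold H3K4me3 (9 reads) in 1 kb, and its H3K4me3 reads (794 bp) lay nearer to the TSS than H3K4me2 (1013 bp) and H3K4me1 (2266 bp).

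The spacing of reads on opposite strands differed between the myotube libraries. Pairs of 5′ ends were most frequent with the end labelled minus 110 bp before that labelled plus in H3K4me3, at a spacing of 0 bp in H3K4me2, and with it 20 bp after in H3K4me1. At a spacing of 150 bp the reversed order had 62788 pairs against 44936 in H3K4me3, 74341 against 72403 in H3K4me2 and 59746 against 58990 in H3K4me1.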
